A study of Sorghum propinquum with 2 samples.

Results

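The genes described here are 7 regulators of flowering by day length in sorghum, chosen by their locus IDs under a rule that uses no measured value. They are the repressors PRR37 (Sb06g014570, also called Ma1) and Ghd7 (Sb06g000570, also called Ma6), the activators CO (Sb10g010050) and Ehd1 (Sb01g019980), and the FT-like genes CN8 (Sb09g025760), CN12 (Sb03g034580) and CN15 (Sb10g003940). Both deposited tables hold a row for 5 of the 7, among 24371 genes in all. No row was found for Ehd1 or CN12, so neither has a value here. The tables give IDs without names, and the names are those used for these loci in sorghum. No listed gene was at 0 in both libraries. A missing row still does not show a count of 0, since the rule that put genes in the tables is not given in the sources used here.

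RNA was sequenced from the rhizome and the shoot of *Sorghum propinquum*, a wild perennial relative of grain sorghum. Its rhizomes are underground stems through which the plant spreads. Both organs came from 1 vegetative clone of an accession with no name given, grown in a greenhouse and sampled at active tillering, when the plant forms side shoots. Each organ is represented by a single library, so values carry no error between plants and no p-value is given. The labels give neither the day length nor the hour of collection.

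Sorghum that responds to day length flowers when days are short. In long days PRR37 and Ghd7, whose transcripts follow the light and the circadian clock, hold back CO action and Ehd1, and with them the FT-like genes. CO is a zinc-finger transcription factor and Ehd1 a response regulator, and both can raise FT-like transcripts. FT-like proteins are florigens, which are made in the leaf and travel to the shoot apex, where they start the change from leaves to flowers.

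The depth was 16862624 gene reads for the rhizome and 17153968 for the shoot. RPKM, the reads per 1000 bases of a gene in each 1000000 reads, was used to compare levels between genes. A gene was called detected at 1 RPKM or more, and a count of 0 was taken to allow up to 3 reads. Intervals are exact 95% intervals (Poisson for a level, conditional binomial for a ratio or share) and cover counting error only. As a check of the organ labels, 5 locus IDs noted as genes of C4 photosynthesis had 39.0 to 987 RPKM in the shoot library and 0.0238 to 12.2 RPKM in the rhizome library. The shoot values were 14.99 to 1636 times the rhizome values, which is the direction the organ labels imply for green tissue. In such bulk samples, fewer cells of a type and less RNA per cell cannot be told apart.

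By RPKM, which divides by gene length, the 5 flowering regulators with a row were low in both organs. PRR37, CO and CN15 were lower in the rhizome beyond counting error, while Ghd7 and CN8 could not be told apart between the organs. In reads, PRR37 stood higher in the shoot library, where 8329 of the 24371 listed genes had its 399 reads or more. Its deposited length is 10190 bases, against a median of 2369 over the listed genes. A level of 1 RPKM was therefore 175 shoot reads for PRR37 and 22.6 for CN8. None of the 5 listed genes reached 1 RPKM in the rhizome library, where 73.0% of all listed genes did. In the shoot library 2 genes reached it, PRR37 and CO, against 74.8% of all listed genes. Ghd7, CN8 and CN15 stayed under 1 RPKM in both libraries. The 5 genes together had 12 rhizome and 490 shoot reads, and PRR37 supplied 81.4% of the shoot reads (interval 77.7% to 84.8%). Without PRR37 the other 4 genes had 12 rhizome and 91 shoot reads, a 7.45-fold higher level in the shoot (4.07 to 14.96). CO held 63 of those 91 reads, and Ghd7, CN8 and CN15 together had 7 rhizome and 28 shoot reads, a 3.93-fold higher level in the shoot (1.68 to 10.7). Such sums pool the reads of different genes and do not show that each gene was higher in the shoot. Among Ghd7, CN8 and CN15, only CN15 differed beyond counting error when taken alone.

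**Figure D1:**
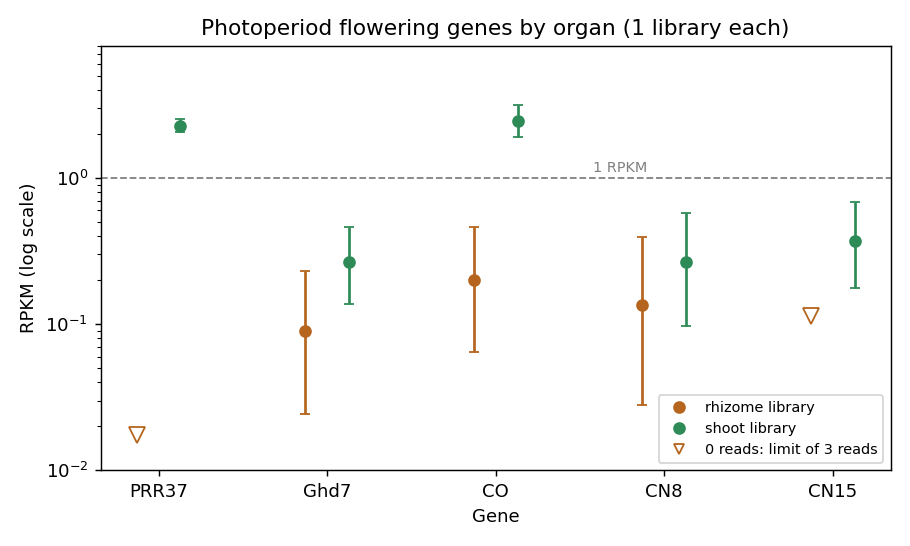
Level of each listed flowering gene in the rhizome (brown) and shoot (green) library, in RPKM on a log axis. Points are single libraries with exact 95% Poisson intervals, open triangles mark the limit of 3 reads where the count was 0, and the dashed line is 1 RPKM. Only PRR37 and CO in the shoot library lie above the line, at 2.28 and 2.46 RPKM.

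Of the repressors, PRR37 showed a wider gap between the organs than Ghd7, CO and CN8, and it cannot be ranked against CN15, which also had 0 rhizome reads. PRR37 is a pseudo-response regulator of the clock family, and its active alleles delay flowering of sorghum in long days. It had 399 reads in the shoot library, or 2.28 RPKM (interval 2.06 to 2.52), and 0 reads in the rhizome library. By the limit of 3 reads the 0 allowed 0.0175 RPKM there, and by the exact interval 0.0215 RPKM, while 1 RPKM of this gene would have been 172 reads. With 3 reads as the rhizome value, PRR37 was 131-fold higher in the shoot. The exact interval of the ratio reached lower and began at 106-fold. PRR37 was 1 of 14 genes (0.168%) that, out of the 8329 with 399 or more shoot reads, had 0 reads in the rhizome library. The listed genes next to it in ID order did not share it. Sb06g014560 had 230 rhizome and 78 shoot reads, and Sb06g014580 had 624 rhizome and 514 shoot reads.

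Ghd7 was well under the 1 RPKM taken as detection in both organs. It encodes a CCT-domain protein that represses Ehd1 and the FT-like genes in long days. The rhizome library held 4 reads of it (0.0897 RPKM, interval 0.0244 to 0.230) and the shoot library 12 reads (0.265 RPKM, 0.137 to 0.462). The shoot level was 2.95 times the rhizome level, and the interval of that ratio, 0.894 to 12.5, included equality. A difference between the organs was therefore not detectable for Ghd7 at this depth, and the same interval does not show equal levels.

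Of the activators, CO was measured. It had 63 reads in the shoot library, or 2.46 RPKM (interval 1.89 to 3.15), and 5 reads in the rhizome library, or 0.199 RPKM (0.0646 to 0.464). The shoot level was 12.4-fold higher (5.04 to 39.5). The whole interval lay beyond 4-fold, and it lay below that of PRR37, which began at 106-fold. The listed ID just before CO, Sb10g010040, had 2041 shoot and 3 rhizome reads, a 669-fold gap in the same direction. Whether any reads are shared between these loci was not tested, since no coordinates or sequences were used. The ID just after CO, Sb10g010060, had 55 shoot and 108 rhizome reads.

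Both listed florigen genes were near or at 0. CN8 corresponds to ZCN8, the leaf florigen of maize, and CN15 to Hd3a, a florigen of rice. CN15 had 10 reads in the shoot library (0.371 RPKM, interval 0.178 to 0.682) and 0 reads in the rhizome library, which allowed up to 0.113 RPKM. With 3 reads as the rhizome value it was 3.28-fold higher in the shoot. The exact interval of that ratio began lower, at 2.20-fold. Of the 20590 genes with at least 10 shoot reads, 302 (1.47%) had 0 rhizome reads. CN8 had 6 reads in the shoot library (0.266 RPKM, 0.0975 to 0.578) and 3 reads in the rhizome library (0.135 RPKM, 0.0279 to 0.395). Its ratio of shoot to rhizome was 1.97 (0.42 to 12.1), so no difference between the organs was detectable. CN8 and CN15 together had 16 shoot and 3 rhizome reads, a 5.24-fold higher level in the shoot library (1.501 to 28.1). At 1 RPKM, CN8 would have given 22.6 shoot reads and CN15 would have given 26.97, so either transcript at that level would have been seen in these libraries. This does not cover CN12, which has no row.

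The order of levels within the shoot library fell into 2 tiers. CO and PRR37 formed the upper one, and their RPKM differed 1.08-fold, with an interval of 0.814 to 1.41 that included equality. PRR37 was 6.16 times as high as the next gene, CN15 (3.31 to 12.9). CN15, CN8 and Ghd7 followed, and neither neighbouring pair differed beyond counting error, with ratios of 1.40 (0.46 to 4.67) and 1.004 (0.309 to 2.89). In the rhizome library the order was CO, CN8 and Ghd7, with ratios between neighbours of 1.47 (0.286 to 9.48) and 1.51 (0.221 to 8.90), and neither pair differed beyond counting error. PRR37 was at 0 and below Ghd7. With 3 reads put in for PRR37, the RPKM of Ghd7 was 5.14 times as high, and the exact interval began lower, at 2.54. CN15, also at 0, cannot be placed in this order, since its 0 reads allowed 0.113 RPKM by the limit of 3 reads and 0.139 RPKM by the exact interval. Ranked by RPKM among all 24371 listed genes, CO in the shoot library exceeded 39.2% and PRR37 exceeded 37.7%, while CN15, CN8 and Ghd7 exceeded 15.6%, 13.5% and 13.4%. In the rhizome library CO, CN8 and Ghd7 exceeded 14.3%, 12.0% and 9.96%. Each place of PRR37 in these orders rests on its deposited length of 10190 bases, against 1491 for CO and 2644 for Ghd7. How these lengths were measured is not stated, and the intervals take them as exact. In reads, PRR37 and CO had 399 and 63 in the shoot library, and Ghd7 and PRR37 had 4 and 0 in the rhizome library. The order of Ghd7 above PRR37 in the rhizome is therefore one of level per length.

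**Figure D2:**
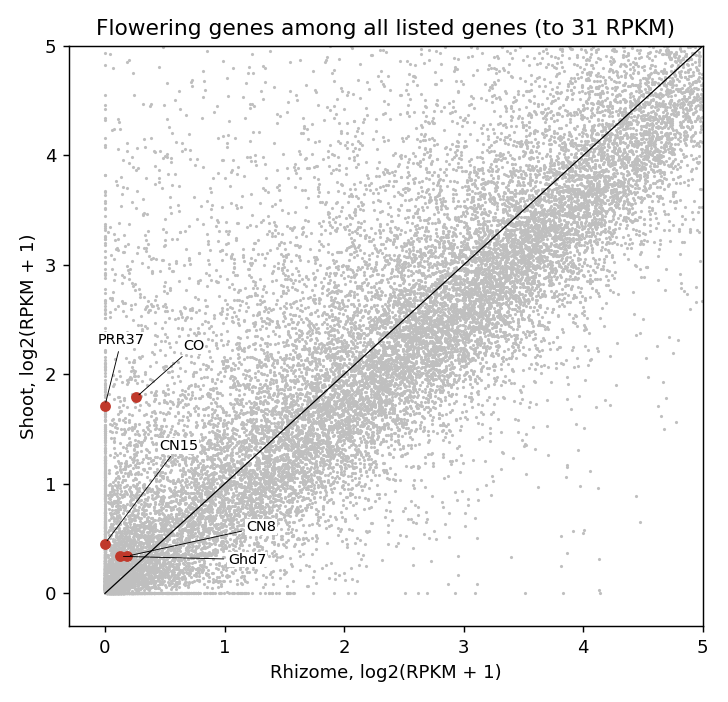
Each grey point is 1 listed gene, by its rhizome level (x axis) and shoot level (y axis) as log2(RPKM + 1), with the flowering genes in red and the line of equal levels in black. The axes end at 31 RPKM, which leaves 3445 genes out of view, and all 5 flowering genes lie in the low corner on the shoot side of the line, PRR37 and CN15 on the axis of 0 rhizome reads.

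All 5 listed genes had a higher scaled count in the shoot library, as had 43.4% of all listed genes. The rule for a large difference was at least 4-fold with at least 1 RPKM in the higher library. It was met in favour of the shoot by PRR37 and CO, and by 9.16% of the 19324 genes that reached 1 RPKM in either library. With no minimum it was met by the same 2 genes and by 8.92% of all listed genes in favour of the shoot, and by none of the 5 and 3.15% in favour of the rhizome. PRR37 and CO passed the minimum through their shoot values alone, so a higher shoot level was built into the count of 2. No flowering gene met the rule in favour of the rhizome, and 2.67% of genes did. The counting interval lay wholly on the shoot side for PRR37, CO and CN15, and for 27.9% of all listed genes. The median log2 ratio of rhizome to shoot was -1.71 over the 5 flowering genes, with genes at 0 placed at 3 reads. Over the 22745 listed genes with more than 3 reads in a library it was 0.17.

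A list of 7 locus IDs noted as light receptors (phytochromes, which sense red light) and components of the circadian clock, which act before PRR37, Ghd7 and CO, was set beside the flowering genes. The tables do not pair these IDs with names, so they are given by ID. Each of the 7 had a higher RPKM than any flowering gene in the rhizome library, and 6 of the 7 did in the shoot library. Most listed genes did too, since CO, the highest flowering gene in each library, exceeded only 14.3% of them in the rhizome and 39.2% in the shoot. All 7 IDs passed 1 RPKM in the rhizome and 6 in the shoot, against 73.0% and 74.8% of all listed genes. None of the 7 met the 4-fold rule in favour of the shoot, and 1 met it in favour of the rhizome. Of the 19324 genes that reached 1 RPKM in either library, 9.16% and 2.67% did. Sb01g009930 was 4.46-fold higher in the rhizome library (3.13 to 6.49), with 2.64 RPKM from 171 reads there and 0.593 RPKM from 39 reads in the shoot library. The other 6 IDs had 16.3 to 142 RPKM in the rhizome library and 29.8 to 170 RPKM in the shoot library. The most abundant was Sb03g003650, with 142 RPKM in the rhizome and 170 RPKM in the shoot library. Sb07g003870 had the largest shoot excess of the list, 2.47-fold (2.36 to 2.58), with 24.5 RPKM in the rhizome and 60.5 RPKM in the shoot library. The counting interval lay on the shoot side for 3 of the 7 IDs and on the rhizome side for 2, against 27.9% and 39.3% of all listed genes. The median log2 ratio of rhizome to shoot over the list was -0.05.

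**Figure D3:**
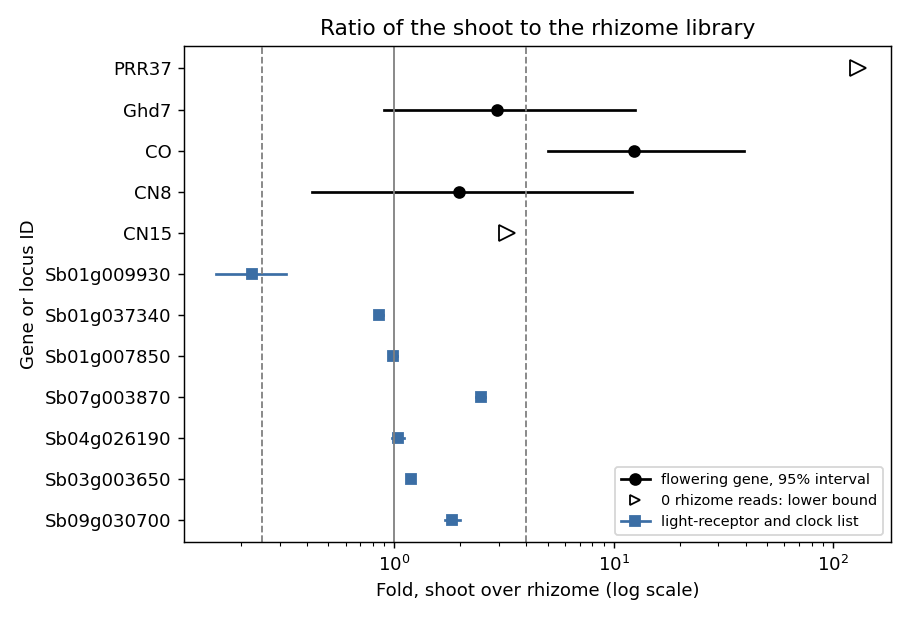
Ratio of the shoot to the rhizome library for the 5 listed flowering genes (black) and the 7 locus IDs of the light-receptor and clock list (blue), on a log axis. Lines are exact 95% counting intervals, the grey line is equality and the dashed lines are 4-fold. Open triangles, named lower bounds in the key, put 3 reads in place of 0 rhizome reads. The exact intervals began lower, at 106-fold for PRR37 and 2.20-fold for CN15. PRR37 (131-fold at 3 rhizome reads) and CO (12.4-fold) lie beyond 4-fold on the shoot side. Sb01g009930 lies beyond 4-fold on the rhizome side.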

How the data were processed

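Total RNA of 1 rhizome and 1 shoot sample was extracted with TRIzol and made into Illumina libraries, per the labels' protocols. Aligner, counting program, genome build, annotation and use of strand were each not given in the sources used here. The deposited counts are whole reads per gene, per the file headers and the values. The deposited RPKM values were recomputed from count, length and column total and differed by less than 1e-06. The tables were read as deposited, and genes were found by locus ID. Since each organ has a single library, no count model could be fitted with a measure of spread, and ratios of counts scaled by library totals were given with exact conditional binomial (Clopper-Pearson) intervals. Every chosen gene with a row is named. The rule for the genes uses no measured value, but the genes, lists and thresholds were chosen with earlier results of these data known. The light-receptor, clock and photosynthesis IDs come from general knowledge of sorghum. With 2 libraries no likeness of pattern between genes was computed. The code was tested on simulated counts. Changes were planted there only in favour of the rhizome, and only in genes above the levels of the flowering genes. Calls by the 4-fold rule at those low levels, or in favour of the shoot, were therefore not tested. Alternatives used TMM scaling (edgeR 4.0.16 in R 4.3.3), median-of-ratios scaling, other thresholds and pseudocounts. Intervals came from scipy 1.17.1, tables from pandas 2.3.3 with numpy 2.4.6, and plots from matplotlib 3.10.9, all in Python 3.11.15.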

Additional observations from a re-analysis of the deposited data

How the results depend on the processing

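All 25 alternative values of the 5 gene ratios kept the shoot as the higher library. That count does not test the direction. An equal pseudocount cannot reverse it, and each other scaling moved every ratio further toward the shoot. The direction of Ghd7 and CN8 stays within counting error. TMM and median-of-ratios scaling each lowered the plain log2 ratios (rhizome over shoot) by 0.17, and leaving the 100 most abundant genes of each library out of the totals lowered them by 0.02. Pseudocounts changed the ratios of these low genes most: with 1 RPKM the log2 ratios of PRR37, CO and CN15 were -1.71, -1.53 and -0.46, against -7.03, -3.63 and -1.71 as reported, and with 0.1 RPKM that of PRR37 was -4.57. The reported values of PRR37 and CN15 put 3 reads in place of 0, and with 0.1 RPKM that of CN15 moved away from equality, to -2.24. With a minimum of 5 RPKM, 0 of the 5 genes were detected in the shoot library and 0 passed the 4-fold rule, and with a minimum of 10 reads 4 were detected in the shoot library. The count of 2 genes past the rule in favour of the shoot was otherwise 2 in each planned setting, 2-fold, 8-fold and no filter included. It was 3 by intervals wholly on one side of equality, a setting added after seeing the data. In favour of the rhizome it was 0 in every setting run, since no setting could turn a ratio toward the rhizome. No paired analysis was possible because there is a single library of each organ, and for the same reason nothing could be left out in turn. The product-name patterns written for further gene lists could not be filled without names. Depth limits Ghd7, CN8 and CN15, which rest on 16, 9 and 10 reads in all.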

Other observations

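Of the 10 listed genes next to the 5 flowering genes in ID order, 0 had a count of 0 in the rhizome library and 2 had a shoot level of at least 4 times the rhizome level. Over all listed genes these shares were 5.30% and 8.92%. The 2 genes were Sb10g010040, described beside CO, and Sb10g003930, the ID before CN15, which was 5.28-fold higher in the shoot library (interval 4.97 to 5.61), with 165.8 RPKM there and 31.4 RPKM in the rhizome library. The ID after CN15, Sb10g003950, had 142 rhizome and 67 shoot reads. The neighbours of Ghd7, Sb06g000550 and Sb06g000580, had 40 and 775 rhizome reads and 17 and 536 shoot reads. Those of CN8, Sb09g025750 and Sb09g025770, had 421 and 3085 rhizome reads and 257 and 2955 shoot reads.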
